A study of Mus musculus with 1111 samples.

Results

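Genes of Toll-like receptor sensing, 10 in all, were followed in single microglia grouped by their content of injected, labelled plasma protein. They are the receptors Tlr2, Tlr3, Tlr4, Tlr7, Tlr9 and Tlr13, the co-receptor Cd14, the adaptor Myd88, and the pair Cd180 and Ly86. The genes were taken by symbol from the count tables, where each of the 10 matched 1 row of 35583. Microglia came from the brains of 3-month-old mice, 20 hours after plasma proteins coupled to the dye NHS-Atto647N had been injected, so all 3 groups came from injected mice. The labels name 3 groups by this signal: plasma none, low and high. Each library is 1 cell made with Smart-seq2, a full-length method, and each label also carries a well and the letters TH with a number from 1 to 3, whose meaning is not stated. Strain, sex and genotype are not given in the sources used here.

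Toll-like receptors recognise conserved microbial molecules and, in some settings, products of damaged cells. Tlr2 and Tlr4 sit at the cell surface, while Tlr3, Tlr7, Tlr9 and Tlr13 read nucleic acids in endosomes. All of these except Tlr3 signal through Myd88 to NF-kappaB, and Tlr3 uses the adaptor Ticam1. Cd14 hands lipopolysaccharide to Tlr4 and its partner Ly96. Ly86, also called MD-1, is a secreted partner of the Toll-like surface protein Cd180, also called RP105, which has no signalling domain of the Toll-like kind and tempers Tlr4 in myeloid cells. Microglia are the resident macrophages of the brain and carry many of these receptors.

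Of 1111 labelled cells, 1045 had a column of counts and 987 passed a minimum of 50000 reads and 500 genes, of which plasma none made up 35.1%, plasma low 35.6% and plasma high 29.4%. Reads in genes came to 80757827, 98868490 and 102428398. No label names an animal, so each group is 1 sample of cells, no test between groups was possible and no p-value is given. Errors are the SD over the 3 TH numbers (n = 3) and say nothing of how animals vary. The groups also occupy different columns of wells, so the well column and the plasma group cannot be told apart. The cells were microglia by their markers: 8 microglial genes summed to between 43947 and 52986 CPM (counts per 1e6 reads in genes, after TMM scaling) in the 9 sums of group and TH number. Border-associated macrophage genes summed to at most 22.2 CPM and monocyte genes to at most 8.42 CPM, while all 6 neutrophil and all 6 lymphocyte genes were at 0 in every sum.

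The partner pair of Ly86 and Cd180 did not share 1 pattern. Ly86 was the member that followed the plasma signal in every TH number. Its level was 1529.8, 1176 and 1206 CPM in plasma none for TH 1, 2 and 3, then 1815, 1338 and 1434 CPM in plasma low and 2068, 1632 and 1752 CPM in plasma high. Within each TH number the order was none, low, high, although across TH numbers the groups overlap, since plasma none of TH 1 lies above plasma low of TH 2 and TH 3. The means over TH numbers (SD, n = 3) were 1304 ± 196.1 CPM without plasma signal, 1529 ± 252.5 CPM with low and 1818 ± 225.3 CPM with high signal. The unscaled sums gave 1292 CPM in plasma none (95% exact Poisson interval 1284 to 1300.15), 1478 CPM in plasma low (1471 to 1486) and 1765 CPM in plasma high (1757 to 1773). These intervals cover the counting of reads only. They take reads as independent and leave out amplification and the spread between cells, so they understate the sampling error.

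**Figure D1:**
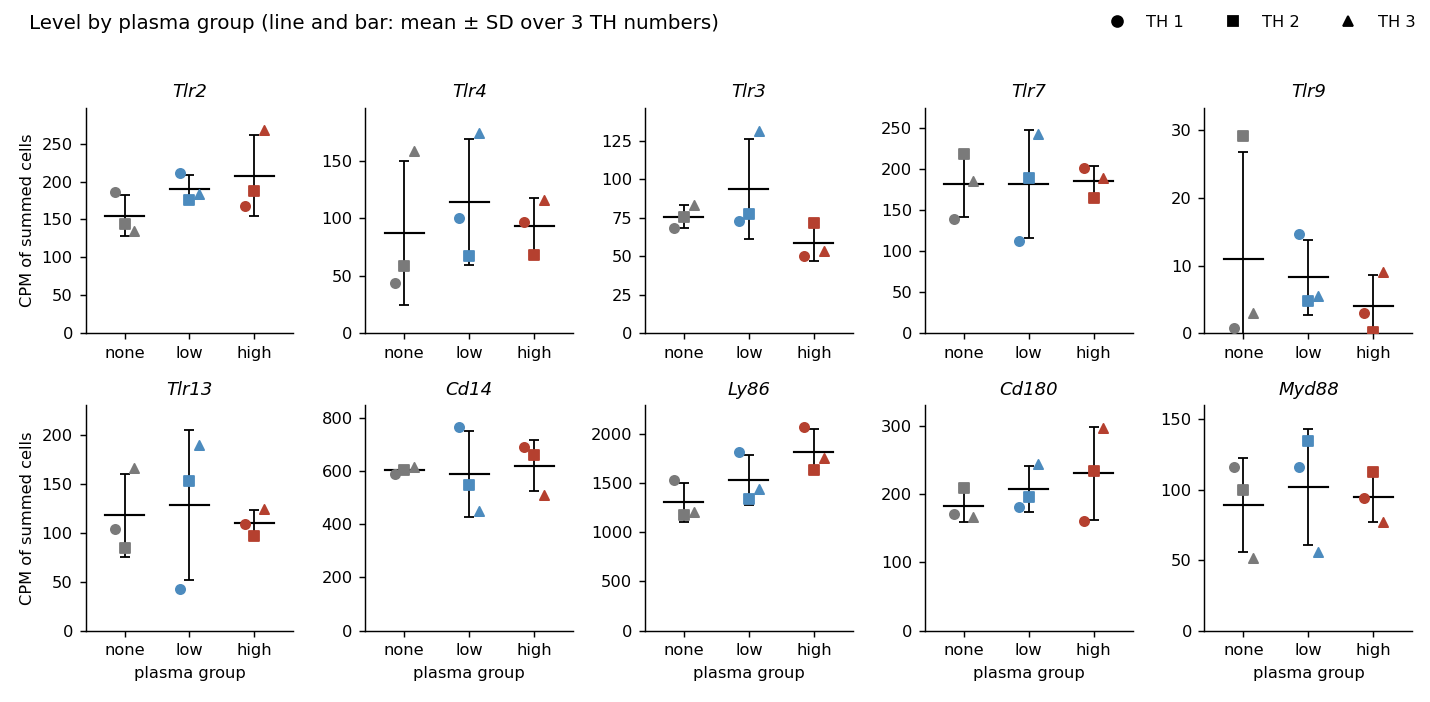
Level of the 10 genes in CPM (vertical axes, each from 0) in the 3 plasma groups, with 1 point per TH number and the mean ± SD over the 3. Ly86 lies at 1304, 1529 and 1818 CPM on average and is the gene in which all 3 TH numbers keep the order none, low, high.

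As a log2 ratio of CPM + 1 within a TH number, Ly86 was higher in plasma high than without plasma signal by 0.43, 0.47 and 0.54, with a mean of 0.48 ± 0.052, which is a 1.40-fold difference. Plasma low exceeded plasma none by 0.23 ± 0.036, and plasma high exceeded plasma low by 0.25 ± 0.058. The last 2 differences share the plasma low cells. Among the 5534 genes with enough reads in plasma high and plasma none, 2.1% followed the order none, low, high in 3 of 3 TH numbers. Abundant genes do so more often: of genes with a mean of at least 1000 CPM, 13.7% kept that order and 36.3% had plasma high above plasma none in 3 of 3. Ly86 is one of these abundant genes, and 7 of them, itself included, or 6.86%, had a ratio at least as large, while their median ratio was 0.014. The step from plasma none to plasma low was smaller in some alternatives. It was 0.14 when each gene's top cell was left out of each sum. The median of all genes in this comparison then also fell, from 0.049 to 0.012. Without the outermost wells the step was 0.12, but that setting does not cut the groups equally, since the first column of wells held plasma none cells. Every one of the 10 alternatives that kept all TH numbers left Ly86 higher in 3 of 3 in each comparison.

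In single cells, the median of Ly86 over all cells of plasma none was 1412, 1129.9 and 985 CPM for TH 1, 2 and 3. In plasma low it was 1749, 1140.1 and 1426 CPM, and in plasma high 1772, 1510.2 and 1625 CPM. The 25th and 75th percentiles of plasma high also exceeded those of plasma none in each TH number, while in TH 2 the medians of plasma none and plasma low were close. A read of Ly86 was found in 93.9% of the cells of plasma none (95% exact binomial interval 90.9 to 96.2), in 96.9% of those of plasma low (94.5 to 98.4) and in 99.7% of those of plasma high, where 1 cell lacked it. These intervals cover counting error only, since cells are not replicates. By TH number the share in plasma none was 94.8%, 89.4% and 97.4%. With every cell thinned to 50000 reads the shares were 93.9%, 96.6% and 99.3%. Depth and quality moved with the groups: the median reads per cell were 207429, 229931 and 267143, and the median mitochondrial share lay between 0.548% and 0.659% in the sums of plasma none and between 0.751% and 1.15% in those of plasma high. Thinning to equal depth gave a ratio of 0.54 for Ly86, and the part of the mitochondrial share in the result was not tested.

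**Figure D2:**
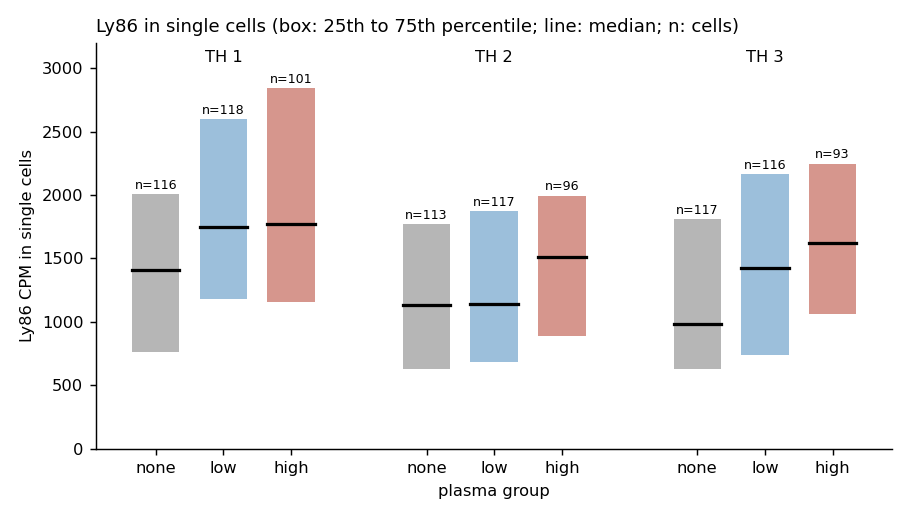
Ly86 in single cells, in CPM from 0 (vertical axis), by plasma group within TH 1, 2 and 3; boxes span the 25th to 75th percentile, lines are medians, and n is the number of cells. The median in plasma high exceeds that in plasma none in each TH number, for example 1625 against 985 CPM in TH 3.

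Cd180, the membrane protein that Ly86 binds, was read in far fewer cells. Its level was 170.4, 208.8 and 166.9 CPM in plasma none, 180.9, 195.2 and 244.5 CPM in plasma low, and 160.4, 233.1 and 296.5 CPM in plasma high. The means of 182.04 ± 23.2, 206.8 ± 33.4 and 230.02 ± 68.1 CPM are ordered, but the groups overlap and TH 1 has its lowest value in plasma high. Plasma high against plasma none gave a log2 ratio of 0.30 ± 0.47, within the spread over TH numbers, and 1 cell held 18.5% of the Cd180 reads of plasma high. More cells of plasma high had a Cd180 read: the shares in plasma none, low and high were 26.01%, 33.9% and 40.7%, or 22.3%, 28.8% and 32.4% at equal depth. At equal depth plasma high had the larger share in 3 of 3 TH numbers, as it did for 34.7% of the 5534 genes, so this is common among genes in these cells. Among cells with a read the median level was 370.5 ± 309.6 CPM without plasma signal, 303.7 ± 52.3 CPM with low and 178.9 ± 70.99 CPM with high signal. The values of plasma none span those of plasma low and, except for TH 3 at 106.5 CPM, those of plasma high. Plasma high was below plasma low in TH 1 and TH 3 but close to it in TH 2. Ly86 stands on chromosome 13 at 37345208 to 37419036, plus strand, and Cd180 on the same chromosome at 102693558 to 102739629, plus strand, in the tables' coordinates, which equal those of GENCODE M21 on GRCm38.

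None of the 10 members met the size rule in any comparison. That rule asks for an average log2 ratio of 1 or more, up or down, with 1 sign in 3 of 3 TH numbers, in a gene that averages 20 CPM or more and is read in 10% or more of either group's cells, and 9 members had enough reads for it, Tlr9 being the exception. In plasma high against plasma none 3.09% of 5534 genes met it as higher and 2.06% as lower. The corresponding shares were 1.6% and 1.04% of 5489 genes in plasma low against plasma none, and 1.75% and 1.52% of 5709 genes in plasma high against plasma low. With so few genes past the rule, 0 of 9 is close to what the whole table gives. Without any filter on low values the count was also 0.

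By the weaker count of the same sign in 3 of 3 TH numbers, Ly86 alone was higher and Tlr3 alone was lower in plasma high against plasma none, where 18.8% of all genes were higher and 13.8% lower. In plasma high against plasma low the same 2 members stood alone, beside 14.1% of genes higher and 13.1% lower. Tlr3 lost its place in plasma high against plasma none without the outermost wells and with a minimum of 100000 reads per cell, and in plasma high against plasma low the count of lower members went from 0 without the outermost wells to 3 without the top cell. Leaving out the outermost wells takes the first column from plasma none, so it does not cut the groups equally. In plasma low against plasma none, Tlr2, Tlr3, Tlr4, Ly86 and Myd88 were higher and none was lower, beside 16.7% and 11.8% of genes. That count of 5 fell with the processing, to 4 with library size scaling or without the cell filter, to 3 with DESeq2 size factors, with cells weighted equally, with thinned cells or without the top cell, and to 2 without the outermost wells, where Cd180 was lower in 3 of 3. The median log2 ratio over the 9 members with enough reads was 0.15, 0.18 and 0.093 in plasma high against none, low against none and high against low, beside 0.054, 0.049 and 0.0056 over all genes with enough reads. With Tlr9 included the medians were 0.099, 0.20 and 0.057.

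**Figure D3:**
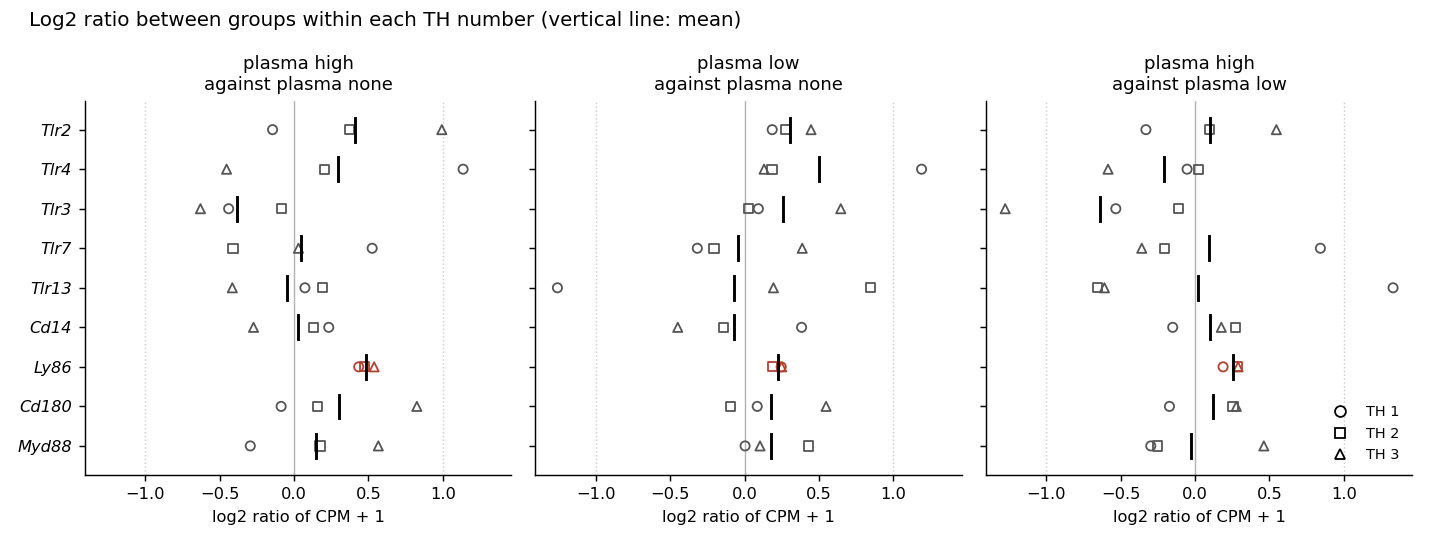
Log2 ratio of CPM + 1 (horizontal axis) for 9 genes in the 3 comparisons, with 1 symbol per TH number, a vertical line at the mean and dotted lines at the ratio of 1 that the size rule asks for. Ly86, in red, has its 3 TH numbers close together at 0.43, 0.47 and 0.54 in plasma high against plasma none, whereas most other genes lie on both sides of 0; Tlr9, read in few cells, is left out.

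At the surface, Cd14 was the most abundant member after Ly86 when levels are set per length: per kilobase of exon, Ly86 had 427 ± 81.7 CPM and Cd14 348.3 ± 55.03 CPM over the 9 sums (SD, n = 9), ranges that overlap. Then came Tlr2 at 61.1, Cd180 at 45.8, Tlr7 at 44.8, Myd88 at 36.96, Tlr13 at 27.6, Tlr4 at 17.7, Tlr3 at 14.6 and Tlr9 at 2.24 CPM per kilobase. The 1 clear gap above Tlr3 lies between Cd14, whose lowest sum was 260.4, and Tlr2, whose highest was 88.96, while neighbours from Tlr2 down to Tlr3 overlap. Cd14 was 587, 603 and 616 CPM in plasma none, 766, 547 and 451 CPM in plasma low, and 690.0, 659.8 and 509.8 CPM in plasma high. The TH numbers disagree on direction, and plasma high differed from plasma none by a log2 ratio of 0.03 ± 0.27. A Cd14 read was present in 75.1%, 75.8% and 74.8% of cells, so roughly the same share of cells carried it in each group.

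Tlr4, the lipopolysaccharide receptor that Cd14 serves, was 43.5, 58.9 and 158.9 CPM in plasma none, 100.6, 67.1 and 174.2 CPM in plasma low, and 96.9, 68.1 and 115.8 CPM in plasma high. TH 3 was the highest in every group, and its plasma none value exceeded all 3 values of plasma high, so the spread between TH numbers was larger than that between groups. Its log2 ratio to plasma none was 0.30 ± 0.80 for plasma high and 0.50 ± 0.60 for plasma low. Tlr4 was read in 22.3%, 27.6% and 22.1% of cells. Ly96, or MD-2, the partner that lets Tlr4 bind lipopolysaccharide, was low, with 18.6 ± 3.90 CPM in the plasma none cells, 22.6 ± 15.6 CPM in plasma low and 16.2 ± 6.10 CPM in plasma high.

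Tlr2, which pairs with Tlr1 or Tlr6 to bind bacterial lipopeptides, was 185.9, 144.6 and 134.2 CPM in plasma none, 211.6, 175.1 and 183.3 CPM in plasma low, and 168.1, 187.2 and 268.1 CPM in plasma high. Plasma low was above plasma none within each TH number, by a log2 ratio of 0.19, 0.28 and 0.45, a mean of 0.30 ± 0.13. The same direction in 3 of 3 held in 10 of the 11 settings with all TH numbers, and was lost without the outermost wells. Plasma high against plasma none gave 0.41 ± 0.57, with TH 1 lower and TH 3 higher, so the groups overlap and no graded pattern like that of Ly86 was seen. A Tlr2 read was present in 27.7%, 36.2% and 35.9% of cells. Of its partners, Tlr6 had 133.6 ± 32.97, 119.4 ± 27.5 and 133.7 ± 37.1 CPM, and Tlr1 41.8 ± 8.81, 46.6 ± 13.8 and 53.9 ± 18.8 CPM.

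Among the endosomal receptors, Tlr7 was the most abundant per length at 44.8 ± 9.73 CPM per kilobase, followed by Tlr13 at 27.6 ± 10.4, Tlr3 at 14.6 ± 4.50 and Tlr9 at 2.24 ± 2.64 (SD over 9 sums). Tlr7 and Tlr13 overlap in their ranges, as do Tlr13 and Tlr3, while the highest Tlr9 sum, 8.39, lies below the lowest Tlr3 sum, 9.60. Tlr7 reads single-stranded RNA and was found in 43.9%, 52.4% and 45.9% of cells. Its level was 139.9, 218.99 and 185.8 CPM in plasma none, 112.1, 189.9 and 243.4 CPM in plasma low, and 201.8, 164.6 and 189.7 CPM in plasma high, with means of 181.6, 181.8 and 185.4 CPM in the 3 groups. Tlr13, which reads bacterial ribosomal RNA, was 103.8, 84.5 and 165.7 CPM in plasma none, 42.8, 152.9 and 189.7 CPM in plasma low, and 109.3, 96.7 and 124.04 CPM in plasma high. Between the outer groups its ratio was -0.05 ± 0.32, and TH 1 and TH 2 went opposite ways in plasma low.

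Tlr3, the receptor for double-stranded RNA, was 68.1, 75.7 and 83.6 CPM in plasma none, 72.7, 77.2 and 131.4 CPM in plasma low, and 49.98, 71.5 and 53.7 CPM in plasma high. The value in plasma high was the lowest of its TH number each time, by a log2 ratio to plasma none of -0.44, -0.08 and -0.63, a mean of -0.38 ± 0.28. Without the outermost wells the mean turned to 0.15, while with cells weighted equally it was -0.89. The share of cells with a Tlr3 read did not follow the level: it was 22.3%, 24.5% and 25.2% in the order none, low, high. In plasma high 1 cell held 19.01% of all Tlr3 reads.

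Tlr9, which reads unmethylated CpG DNA, was found in 31 of 987 cells, 3.14%. Its sums were 0.831, 29.2 and 3.01 CPM in plasma none, 14.7, 4.78 and 5.43 CPM in plasma low, and 2.95, 0.185 and 9.05 CPM in plasma high. A single cell held 40.8% of the reads in plasma none and 60.6% in plasma high, so no difference between groups could be detected at this depth.

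Myd88, the adaptor of most members, was 115.7, 99.7 and 51.7 CPM in plasma none, 115.98, 134.4 and 55.7 CPM in plasma low, and 94.2, 112.6 and 77.1 CPM in plasma high. The groups overlap, and plasma high against plasma none gave 0.15 ± 0.43. In plasma low against plasma none it was 0.0036, 0.43 and 0.10 in TH 1, 2 and 3, so its place among the 5 members higher in 3 of 3 rests on a TH 1 value at almost 0. A Myd88 read was present in 17.3%, 23.1% and 24.8% of cells.

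Myd88 and Tlr3 counts are uncertain because annotated genes on the opposite strand share exon bases with them, and whether the counting used strand is not given in the sources used here. Myd88 (chromosome 9, 119335934 to 119341411, minus strand) shares exon bases with Acaa1a, a peroxisomal thiolase (119339676 to 119350299, plus strand). At equal depth both were read in 2.47 times as many cells as would follow from their separate shares within each group and TH number. Tlr3 (chromosome 8, 45395665 to 45411080, minus strand) shares exon bases with the antisense gene Gm45542 (45410063 to 45410760, plus strand), and 73 of the 74 cells with a Gm45542 read also had a Tlr3 read, where 15.6 would follow. Cd180 shares exon bases with Mast4 on the minus strand, where 45 cells had both and 37.9 would follow. Without strand, reads from the shared bases cannot be told apart.

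**Figure D4:**
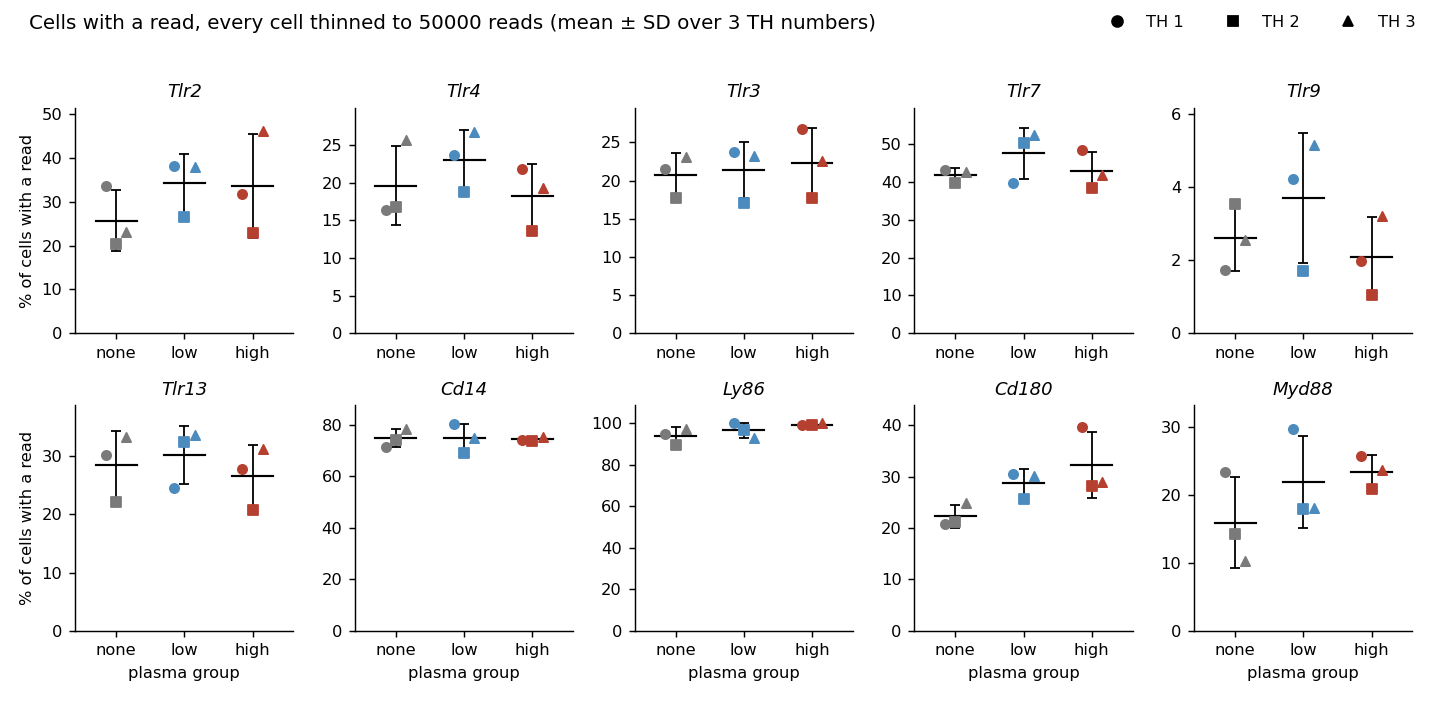
Share of cells with at least 1 read (vertical axes, percent, each from 0) after every cell was thinned to 50000 reads, by plasma group, with 1 point per TH number and the mean ± SD. Ly86 lies at or above 89.4% throughout, Cd180 has a larger share in plasma high than in plasma none for each TH number, and Tlr9 stays at or below 5.17%.

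No cell carried the whole set: at most 9 of the 10 members were read in a cell of plasma none and at most 8 in a cell of the other groups. At 50000 reads a cell had a read of 3.46 ± 0.231 members on average without plasma signal, 3.82 ± 0.225 with low and 3.75 ± 0.337 with high signal (SD over TH numbers, n = 3). In plasma none 1 cell had none of the 10, and in the other groups every cell had at least 1. At this depth 3 of the 9 members with enough reads (Ly86, Cd180 and Myd88) were detected in more cells of plasma high than of plasma none in 3 of 3 TH numbers, where 34.7% of genes were, and 4 of 9 (Tlr2, Tlr4, Cd180 and Myd88) in more cells of plasma low, where 36.9% of genes were. The median number of genes per cell in the 3 sums was 1631 to 1729.5 in plasma none, 1768 to 2213 in plasma low and 1882.5 to 2045 in plasma high before thinning.

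Joint reads of members in a cell were close in number to what their separate shares give. Over the 36 pairs of the 9 members other than Tlr9, cells with both were 0.959 to 1.17 times the number expected from the separate shares. Pairs with Ly86, read in 952 of 987 cells at equal depth, could hardly exceed that number, so they say little about independence. Across the 987 cells, with log2 values centred within group and TH number, Pearson's r between members lay between -0.055 and 0.088. The cells share their sorting and depth, and low r values are common in sparse counts, so these are descriptions only.

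By the same measure, the genes most like Ly86 across cells were Cst3 with r = 0.18, Aif1 with 0.17 and Olfml3 with 0.16, all abundant microglial transcripts, among 5690 genes read in at least 10% of cells. Myd88 was most like Acaa1a, at r = 0.44, the gene whose exons it shares. Leaving that pair out, the 3 genes closest to each of the 9 members had r between 0.11 and 0.18. The closest were Madd for Tlr2, Stag2 for Tlr4, Fbxo11 for Tlr3, Prpf4b for Tlr7, Slc8a1 for Tlr13, Gripap1 for Cd14 and Lman1 for Cd180. Gm45542 was read in too few cells to be ranked, and its r with Tlr3 was 0.62.

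Other genes of the pathway were read from 8 lists with 59 genes, of which 40 had enough reads in plasma high against plasma none. Their median log2 ratio was 0.005, with 21 higher and 19 lower, where 54.8% of all 5534 genes were higher with a median of 0.054, and 0 met the size rule. In 3 of 3 TH numbers 10 of the 40 were higher and 6 lower, beside the 18.8% and 13.8% of all genes given above. The lists were chosen with earlier results of these data known.

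Of the endolysosomal enzymes that trim the receptors or their ligands, 7 of 8 had plasma high above plasma none, 5 of them in 3 of 3 TH numbers, with a median of 0.33. Among all genes 18.8% were higher in 3 of 3, and among genes of at least 1000 CPM, to which Ctss, Lgmn, Ctsb and Pld4 belong, 36.3% were. Ctss, cathepsin S, a protease that cuts endosomal Toll-like receptors, went from 6827 ± 478 CPM in plasma none through 7865 ± 1165 CPM in plasma low to 9239 ± 366.6 CPM in plasma high, a ratio of 0.44 ± 0.048 between the ends. Ctsb, cathepsin B, named after its values were seen, had a ratio of 0.42 ± 0.071. The largest ratio in the list was that of Pld3, a phospholipase D family exonuclease of lysosomal nucleic acids, at 0.69 ± 0.43, and the lowest was that of Rnaset2b, an endosomal ribonuclease, at -0.03 ± 0.21. Rnaset2a and Rnaset2b are near-identical copies, so their counts are uncertain.

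Chaperones and traffic proteins showed no common direction, with 1 of 5 higher and 4 lower. Unc93b1, which carries the nucleic acid receptors to endosomes, was read in 97.6% of cells at 1987 ± 56.6, 2036 ± 244.9 and 1999 ± 330.7 CPM in the order none, low, high. Cnpy3, a chaperone that folds Toll-like receptors with Hsp90b1, was lower in plasma high in 3 of 3 TH numbers, by -0.47 ± 0.086. Ap3b1, a subunit of the adaptor complex that sorts cargo to lysosomes, had a ratio of 0.53 ± 1.0019, with TH 1 opposite to the others.

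Of the kinases and ubiquitin ligases, 12 of 18 had enough reads, 7 higher and 5 lower, with 4 and 3 in 3 of 3 TH numbers. Chuk, the IKK-alpha kinase of the NF-kappaB pathway, was 160.98 ± 33.5 CPM in plasma none and 92.9 ± 11.5 CPM in plasma high, a ratio of -0.77 ± 0.26. Pik3ap1, or BCAP, a phosphoinositide kinase adaptor, was 141.003 ± 3.03 and 199.3 ± 41.6 CPM, a ratio of 0.47 ± 0.33. Peli1, a ubiquitin ligase that acts on the IRAK kinases, was the most abundant of the list and had a ratio of 0.0026 ± 0.29. Of the other adaptors, Ticam2, which bridges Tlr4 to Ticam1, had enough reads and a ratio of 0.19 ± 0.66. Tirap, which bridges receptors to Myd88, was read in 7.40% of cells, and its values of -0.23, 0.33 and 3.28 in the 3 TH numbers did not agree.

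Of the negative regulators with enough reads 3 of 5 were lower in plasma high than in plasma none, none of them in 3 of 3 TH numbers, while 2 were higher, of which Tollip was so in 3 of 3. Of the transcription factors 5 of 7 were lower, 2 of them in 3 of 3. Nfkbia, which holds NF-kappaB in the cytosol, was 226.3 ± 66.4 CPM without plasma signal, 129.3 ± 30.4 CPM with low and 171.4 ± 33.6 CPM with high signal, a ratio of -0.37 ± 0.39 between plasma high and plasma none. The list of immediate early and dissociation genes, 13 in number with 4 at 0 in each group, was also lower in plasma low and plasma high, summing to 726 ± 154.2, 605 ± 54.5 and 603 ± 34.2 CPM, and its part in the Nfkbia values was not tested. Tollip, which restrains IRAK signalling, met the size rule in plasma low against plasma none alone among the 59 genes, with 21.1 ± 12.1 against 40.4 ± 10.2 CPM and a ratio of 1.01 ± 0.40, just past the limit of 1. Cyld, a deubiquitinase, had the lowest ratio of its list in plasma high, -0.73 ± 1.72, with TH 3 opposite to the others. Among the transcription factors, Irf3 was lower in 3 of 3 TH numbers, 62.2 ± 15.8 against 36.2 ± 10.1 CPM with a ratio of -0.77 ± 0.15, while Rel, a subunit of NF-kappaB, had the highest ratio, 0.96 ± 1.42, with TH 3 opposite. Irf8, a lineage factor of microglia and the most abundant of the list, had a ratio of -0.11 ± 0.099.

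**Figure D5:**
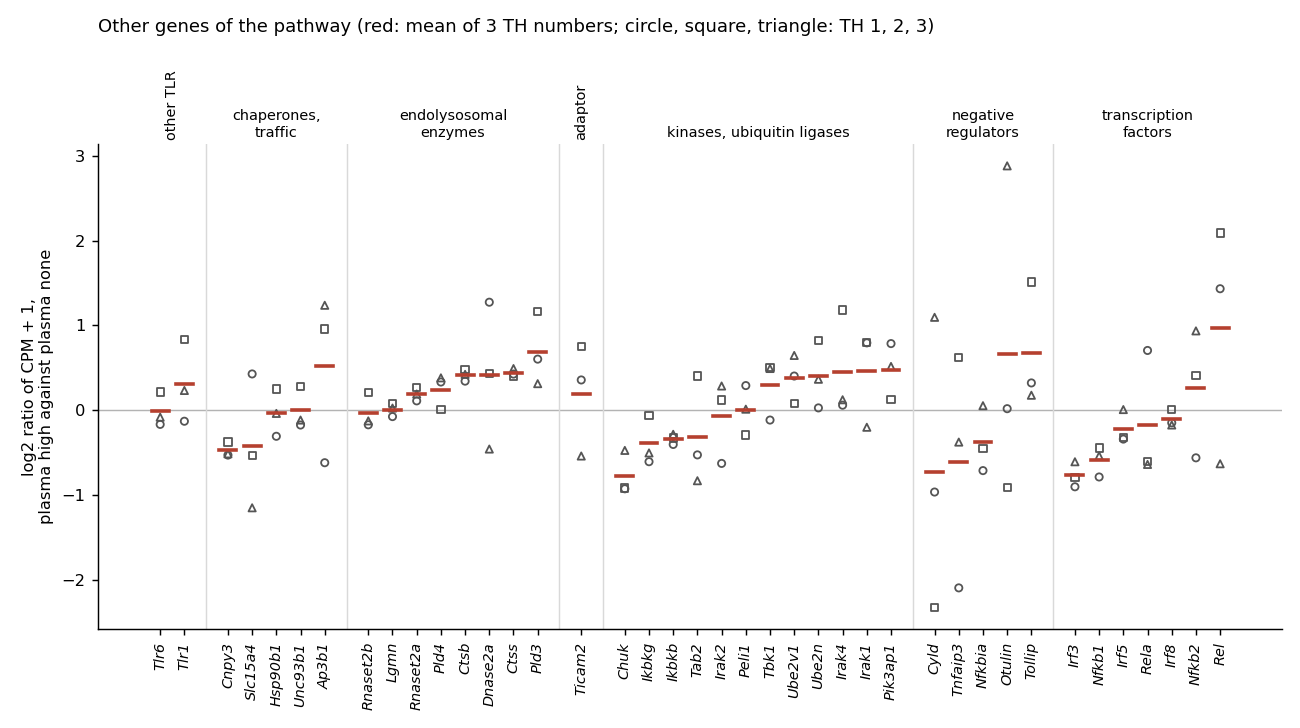
Log2 ratio of CPM + 1 in plasma high against plasma none (vertical axis) for the 40 pathway genes with enough reads, grouped by role, with 1 symbol per TH number and a red bar at the mean. In the endolysosomal enzymes 7 of 8 means lie above 0, while kinases, regulators and transcription factors spread to both sides, and no gene meets the size rule.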

How the data were processed

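Counts were made by the authors and deposited as 1 table per TH number, with 1 column per cell; per the submitters' processing notes, bcl2fastq, Trim Galore, STAR 2.5.3a, Seurat and the build mm10 were used, with no roles given. Per the file headers, columns of TH 2 and TH 3 came from alignments reduced to top hits, and those of TH 1 carry no such note. In 1 deposited column of TH 3 the value is an expected count, since 2 entries were not whole, and these were rounded. How reads were assigned to genes, and whether strand was used, is not given in the sources used here. Values were read as reads per gene.

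Of 1111 labelled cells 1045 matched a column and the other 66 were not analysed here. Reads of cells with at least 50000 reads and 500 genes were summed into 9 sums, scaled with TMM factors (edgeR 4.0.16, R 4.3.3) and compared as log2(CPM + 1) within each TH number. Only genes averaging 20 CPM or more over the 2 groups and read in 10% or more of either group's cells entered a comparison. Thinning drew 50000 reads per cell with a fixed seed. Since no animal is named, the TH numbers are not known to be separate animals, and no p-value is given. Cells were sorted singly, so no doublet caller was run. The ratio and the size rule were tested on simulated data.

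The members, the pathway lists and the marker lists were chosen with earlier results of these data known. Named from each pathway list were genes that met the size rule, the gene with the highest mean CPM, and the largest and smallest ratio between the outer groups among genes of at least 20 CPM; for each member read in at least 10% of cells the genes most like it were ranked. Alternatives covered scaling (library size, DESeq2 1.42.0 size factors), the pseudocount, the cell filter, the weight of cells, thinning, the top cell, the outermost wells and each TH number left out. The top cell was taken for each gene in each sum. The outermost wells include the first column, which held plasma none cells, so leaving them out does not cut the groups equally.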

Additional observations from a re-analysis of the deposited data

How the results depend on the processing

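The count of 0 members past the size rule held in all 3 comparisons under every alternative run. The median log2 ratio of the 10 members in plasma high against plasma none, 0.099, was -0.036 with every cell weighted equally, 0.026 with cells thinned to 50000 reads, and between -0.092 and 0.31 with 1 TH number left out, lowest without TH 1 and highest without TH 2, so its sign is not settled. The median in plasma high against plasma low, 0.057, also changed sign, to -0.023 with cells weighted equally, -0.0093 with thinned cells, -0.0063 without the top cell and -0.089 without TH 1. In plasma low against plasma none, 0.20 fell to 0.11 without the outermost wells. Medians over the 9 members with enough reads, chosen after seeing the data, were 0.15, 0.093 and 0.18 in these 3 comparisons. The median number of members with a read per cell, averaged over TH numbers, was 3 in plasma none and 3.33 at 100000 reads, and 4 in plasma low and 3.67 with at least 2 reads asked for. In plasma high it was 3.67, 4 without thinning, and between 3.5 and 4 with 1 TH number left out. Ly86 in plasma high against plasma none stayed between 0.39 and 0.54 in 13 alternatives. Tlr3 ranged from -0.92 to 0.15 there, positive only without the outermost wells. No scaling moved the median of all genes by over 0.1. The ratios pair the sums by TH number; beyond that, no paired analysis was possible because no result comes from a test to which a block could be added. The small number of cells with a read limits Tlr9, and the TH numbers, 3 in all, limit the precision of every ratio.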
